A study of Homo sapiens with 6 samples.

Results

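The genes of fatty acid synthesis, elongation and desaturation were examined in H460 cells exposed to fluoxetine, an antidepressant that blocks serotonin reuptake. They are the rows of the deposited count table with the gene symbols ACLY, ACSS2, ACACA, FASN, SCD, FADS1, FADS2, ELOVL1, ELOVL5 and ELOVL6. They make 10 of the 31762 genes in the table and were chosen by function, with earlier results of these data known. H460 is a human lung carcinoma cell line, of wild type genotype per the labels. Transcripts were counted by RNA sequencing in 3 libraries of control cells and 3 libraries of cells that received 20 µM fluoxetine for 24 h. Both groups were grown in RPMI-1640 medium with fetal bovine serum. The labels do not say what the control cells received in place of the drug, or whether the 3 libraries of a group came from separate cultures, so p-values measure the spread between these libraries, which may be technical.

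Cells make fatty acids in the cytosol from acetyl-CoA, which is taken from citrate or from free acetate. Acetyl-CoA carboxylase turns it into malonyl-CoA, and fatty acid synthase joins these units, at the expense of NADPH, into palmitate. Elongases of the endoplasmic reticulum add further carbon pairs to this chain or to fatty acids from the diet. Desaturases put double bonds into the chains, either into saturated ones to give oleate and palmitoleate or into linoleate and linolenate to give the highly unsaturated fatty acids of membranes. Genes of this pathway are known targets of SREBP transcription factors, whose release from the endoplasmic reticulum membrane depends on sterols.

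In fluoxetine-treated cells, 8 of the 10 genes were higher than in control cells at an adjusted p-value under 0.05, and 6 of these rose at least 2-fold. The largest increases were those of FADS2 (4.79-fold), SCD (3.58-fold) and ACSS2 (3.16-fold), whereas ELOVL5 and ELOVL1 did not pass the test. Over all 15646 genes tested with edgeR, 7.76% were higher at that threshold, 1.25% were higher by at least 2-fold, and 5.32% were lower. These were 1214 higher and 833 lower genes. DESeq2, run on all 31762 genes without the filter used for edgeR, called 1106 higher and 1140 lower. No member was called lower, with 0 genes at the adjusted threshold by edgeR, DESeq2 or limma-voom and 0 at an unadjusted p under 0.05 by edgeR. The median log2 fold change was 1.21 over the members and 0.03 over all genes tested. All 10 members passed the filter on low counts, with at least 472 reads in every library.

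The members took between 0.217% and 0.244% of all gene counts in the control libraries and between 0.568% and 0.625% in the fluoxetine libraries. Levels are given below as CPM, the count of a gene scaled to a common library total with TMM factors, and means as the mean ± SD over 3 libraries. Log2 fold changes are of fluoxetine against control, with their standard error (SE) and the p-value of edgeR's quasi-likelihood test after Benjamini-Hochberg adjustment over all tested genes. The libraries held 16157507 to 27823667 counts, with every fluoxetine library below every control library, and 3 counts, the limit that a count of 0 allows, were worth 0.108 to 0.186 CPM (counting error only). Mitochondrial transcripts took 8.13% to 8.89% of the counts. Control replicate 3 stood farthest from its group by a chi-square on raw counts. This was 12.4 and 21.7 per degree of freedom against the other control libraries, which differed from each other by 5.63. The measure grows with depth, and control replicate 3 was the deepest library. The keratins KRT8 and KRT19 were abundant (1844 ± 355 CPM and 1287 ± 116 CPM in control cells). A further keratin, KRT7, had only 0.805 ± 0.0748 CPM in control and 0.874 ± 0.255 CPM in fluoxetine-treated cells. EPCAM, CDH1 and the lung lineage marker NKX2-1 were at most 0.573 CPM in every library. Of the epithelial and lung markers examined, only KRT8, KRT18 and KRT19 were thus well expressed. KRT18 fell from 512 ± 45.0 CPM to 312 ± 39.2 CPM (adjusted p = 0.00162, edgeR). Among markers of other cells, adipocyte and hepatocyte genes summed to at most 0.291 CPM, endothelial genes to at most 0.182 CPM and leukocyte genes to 1.69 to 2.39 CPM, nearly all of it CD14. Fibroblast genes summed to 26.8 to 28.4 CPM in control and 25.2 to 25.5 CPM in fluoxetine libraries. Within them, and named after their values were seen, LUM had a log2 fold change of 0.88 (adjusted p = 0.00448) and COL3A1 of -0.53 (adjusted p = 0.0145), by edgeR. The part of these markers in the results was not tested. As the RNA is of whole cultures, more transcript per cell and more cells with the transcript cannot be told apart.

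**Figure D1:**
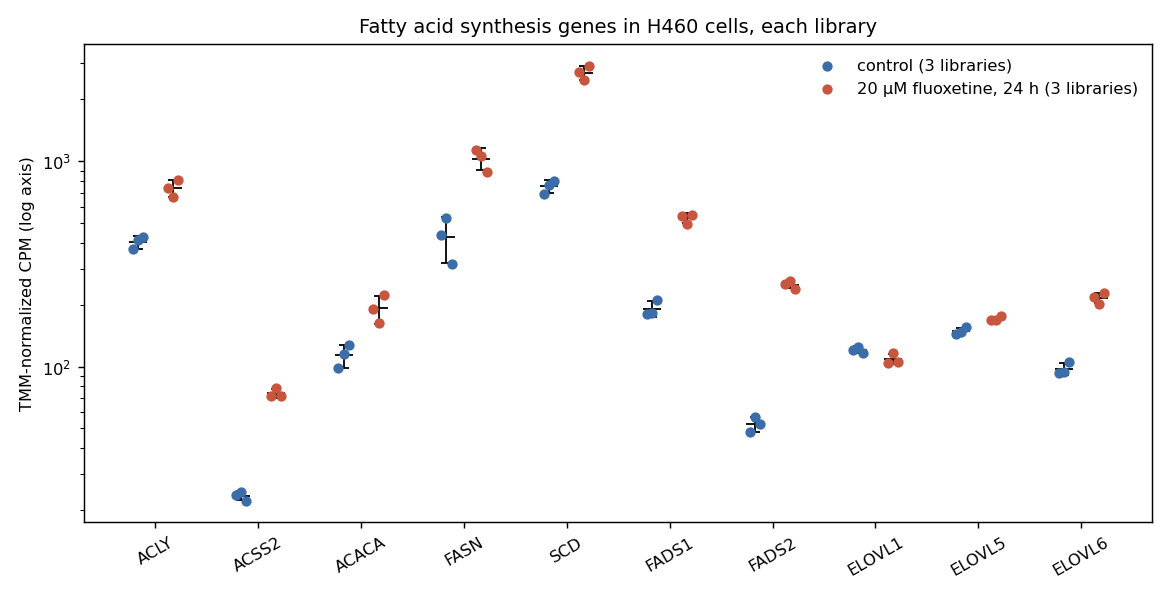
Level of each gene in each library, in TMM-normalized CPM on a log axis. Points are libraries, horizontal marks the mean and bars the SD over 3 libraries. The fluoxetine points lie above the control points in 9 genes and below them in ELOVL1. Of all genes tested, 17.5% were separated to the higher side and 14.4% to the lower side.

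Promoter windows are shown for the 3 desaturase genes, each called higher by over 2-fold, and for ELOVL1, which was not called. Members on both sides of the test can thus be compared. Windows of 300 bases, from 250 before to 50 after an annotated transcription start, were taken from a table of RefSeq promoters on build GRCh38.p14, in which 14 windows of 9 of the 10 genes were matched. The promoter of FASN was not analysed here. FADS1 lies on the minus strand and FADS2 on the plus strand of chromosome 11. Their matched starts at 61817003 and 61816404 are 599 bases apart, each inside the other gene. A second matched start of FADS2, at 61816203, is 800 bases away. The gene spans run from 61799625 to 61829318 (FADS1) and from 61792980 to 61867354 (FADS2), so other starts may lie outside these windows. Which starts H460 cells use was not tested. Capitals mark 3 motifs on either strand, the NF-Y box CCAAT, the GC box GGGCGG and the E-box CACGTG, together with any match to the sterol regulatory element letters TCACNCCAC.
SCD, chr10:100346983-100347282, plus strand: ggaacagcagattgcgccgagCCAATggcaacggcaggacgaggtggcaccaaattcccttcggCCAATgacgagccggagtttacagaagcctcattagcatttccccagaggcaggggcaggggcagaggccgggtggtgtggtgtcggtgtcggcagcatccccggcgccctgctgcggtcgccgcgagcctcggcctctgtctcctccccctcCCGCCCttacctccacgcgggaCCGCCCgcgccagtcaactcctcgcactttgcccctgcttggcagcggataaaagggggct
FADS1, chr11:61816954-61817253, minus strand: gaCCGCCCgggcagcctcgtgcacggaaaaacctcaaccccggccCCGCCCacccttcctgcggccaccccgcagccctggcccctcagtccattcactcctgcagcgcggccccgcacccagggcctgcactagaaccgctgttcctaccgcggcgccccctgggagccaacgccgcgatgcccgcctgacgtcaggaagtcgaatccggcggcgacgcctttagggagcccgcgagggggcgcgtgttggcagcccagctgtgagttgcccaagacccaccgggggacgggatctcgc
FADS2, chr11:61816154-61816453, plus strand: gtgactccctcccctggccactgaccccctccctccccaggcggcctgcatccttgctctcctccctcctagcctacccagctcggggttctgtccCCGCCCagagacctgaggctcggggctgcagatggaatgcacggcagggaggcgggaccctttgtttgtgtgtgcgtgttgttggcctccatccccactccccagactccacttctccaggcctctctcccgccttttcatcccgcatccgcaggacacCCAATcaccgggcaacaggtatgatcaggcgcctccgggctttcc
ELOVL1, chr1:43367962-43368261, minus strand: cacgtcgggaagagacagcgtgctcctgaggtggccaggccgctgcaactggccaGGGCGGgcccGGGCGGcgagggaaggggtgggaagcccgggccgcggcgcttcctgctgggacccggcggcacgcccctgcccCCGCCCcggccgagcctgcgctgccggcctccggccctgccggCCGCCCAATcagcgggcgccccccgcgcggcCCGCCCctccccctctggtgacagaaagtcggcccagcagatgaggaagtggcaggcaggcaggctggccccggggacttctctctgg

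In the SCD window, both NF-Y boxes lie far upstream, 229 and 186 bases before the start. The printed FADS2 window, of its downstream start, has its only NF-Y box 5 bases after that start. The window of the other FADS2 start, which is not printed, held none of these motifs. FADS1 has no NF-Y box in its window. ELOVL1 has 1 NF-Y box, which overlaps 1 of its 5 GC boxes. Over all members, 9 of the 14 windows held an NF-Y box, against 34.6% of all 35116 RefSeq windows. These windows belong to 7 of 9 genes, of which FADS2, ACSS2 and ACACA also had a window without an NF-Y box. FADS1 and ELOVL6, both called higher, had no NF-Y box, whereas ELOVL1 and ELOVL5, which were not called, each had at least 1. A GC box was found in 11 of the 14 windows, against 45.0% of all windows. Of 20 windows of the cholesterol synthesis genes described below, 15 held an NF-Y box and 18 a GC box. An E-box was in 1 member window, that of ELOVL5, against 7.26% of all windows. The sterol regulatory element letters were in 0 of 14 member windows and in 0 of the 20 cholesterol synthesis windows, against 1.13% of all windows. Windows of 1 gene overlap in part, and a match describes letters only.

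ACLY and ACSS2 supply acetyl-CoA. ACLY, which splits citrate into acetyl-CoA and oxaloacetate, is transcribed from chromosome 17 (41866908 to 41930542, minus strand). Its level was 372, 413 and 429.7 CPM in control replicates 1, 2 and 3, and 742, 673 and 807 CPM in fluoxetine replicates 1, 2 and 3. The groups did not overlap, and the lowest fluoxetine library was 56.5% above the highest control library. The log2 fold change of ACLY was 0.87 with SE 0.09 (adjusted p = 1.76e-04) by edgeR's quasi-likelihood test, under the 2-fold line. Such separation to the higher side was seen in 17.5% of all genes tested, and to the lower side in 14.4%.

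ACSS2 activates free acetate to acetyl-CoA and lies on chromosome 20 (34872146 to 34927962, plus strand). It had the lowest mean level per kilobase of exon among the members in both groups. Its level was 23.7, 24.6 and 22.3 CPM in the 3 control libraries. After fluoxetine treatment it stood at 72.2, 78.6 and 71.8 CPM. Every fluoxetine library was at least 192% above every control library, and the log2 fold change was 1.66 with SE 0.09 (adjusted p = 2.15e-06) by edgeR. The ratio of ACSS2 to ACLY, each per kilobase of exon, was 0.0617, 0.0577 and 0.0502 in control and 0.0942, 0.113 and 0.0861 in fluoxetine libraries. It thus moved towards the acetate enzyme by 0.79 on the log2 scale, without overlap, and with the exact two-sided permutation p = 0.1 that is the smallest 3 libraries against 3 can give (0.15 after Benjamini-Hochberg adjustment over the 6 ratios computed). GGT7, which reaches into the ACSS2 span from the other strand without sharing exon bases, had a log2 fold change of 0.34 (adjusted p = 0.0698, edgeR).

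ACACA and FASN carry the path from acetyl-CoA to palmitate. ACACA, the cytosolic acetyl-CoA carboxylase that commits acetyl-CoA to fatty acid synthesis, spans chromosome 17 from 37084988 to 37406818 (minus strand). Control libraries held 98.2, 115 and 127 CPM and fluoxetine libraries 191, 163 and 222 CPM. Its groups were the closest among the called members, the lowest treated library being 28.4% above the highest control one. The log2 fold change was 0.76 with SE 0.12 (adjusted p = 0.00346) by edgeR.

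FASN encodes the multifunctional synthase that builds palmitate (chromosome 17, 82078333 to 82098332, minus strand). Its level was 436, 530.3 and 315 CPM in control replicates 1, 2 and 3, and 1135, 1063 and 889 CPM in fluoxetine replicates 1, 2 and 3. The groups were separate, but the third library was the lowest of each, and the SD in control cells, 25.3% of the mean, was the widest of the 10 members. FASN had a log2 fold change of 1.27 with SE 0.16 (adjusted p = 0.00101) by edgeR, which was 1.06 without control replicate 3. With a FASN to ACACA ratio per kilobase of 6.16, 6.41 and 3.45 in control and 8.28, 9.07 and 5.55 in fluoxetine libraries, the groups overlapped, and a shift between these consecutive steps was not shown (log2 difference 0.54, exact permutation p = 0.3, adjusted 0.3).

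The deviations of the third libraries differed with base composition. FASN had the highest GC content of the members, 65.3% in its longest transcript, above 97.6% of the tested genes. In control replicate 3 it lay 0.41 below the group mean on the log2 scale, whereas ELOVL6, with the lowest GC content (41.2%), lay 0.11 above it. The same held in fluoxetine replicate 3, with -0.20 for FASN and 0.08 for ELOVL6. The order by GC content was not strict, as ACACA (48.7%) lay highest in both libraries, at 0.17 and 0.22. Over the 10% of tested genes richest in GC, the median deviation was -0.29 in control replicate 3 and -0.17 in fluoxetine replicate 3. Over the 10% poorest in GC it was 0.10 and 0.03. In control replicates 1 and 2 the median of the GC-richest genes was 0.16 and 0.15, where FASN deviated by 0.06 and 0.35. In fluoxetine replicates 1 and 2 that median was 0.04 and 0.14, against 0.15 and 0.05 for FASN. When the trend of each library with GC content was removed, an alternative chosen after seeing the data, the log2 fold change of FASN was 1.35 and its standard error fell from 0.16 to 0.08. The same 8 members passed the test and the same 6 the 2-fold line. The part of base composition in the spread of FASN was not tested beyond this.

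**Figure D2:**
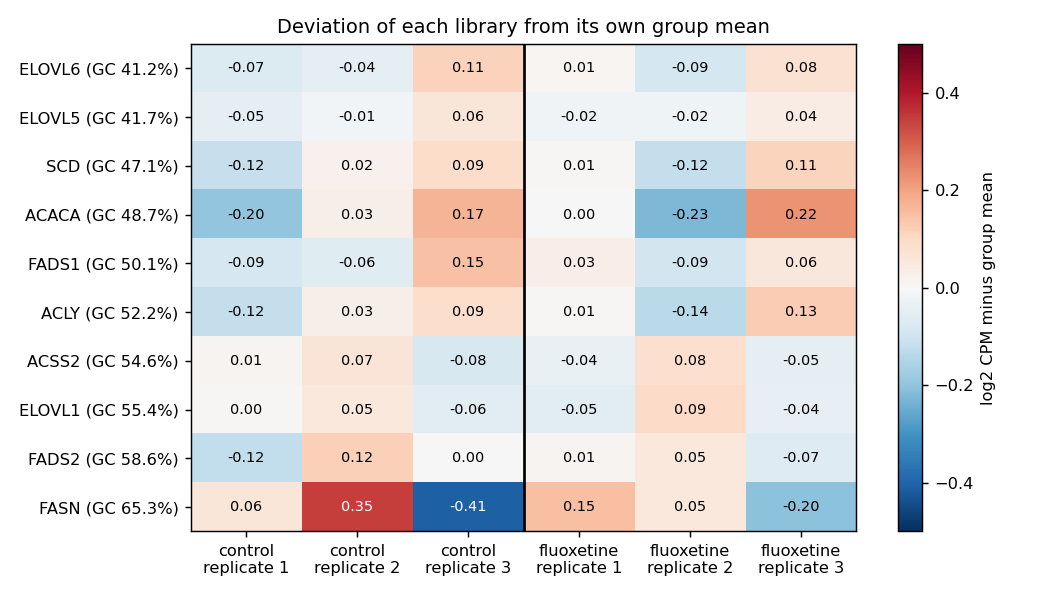
Deviation of each library from the mean of its own group, in log2 CPM, with the genes ordered by the GC content of their longest transcript. In replicate 3 of both groups the genes with less GC are above and those with more GC mostly below their group mean. In control replicate 3 the values run from 0.17 in ACACA to -0.41 in FASN, with 0.11 in ELOVL6.

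SCD, the stearoyl-CoA desaturase that makes oleate and palmitoleate, was the most abundant member (chromosome 10, 100347124 to 100364834, plus strand). It was counted 15345, 14706 and 22311 times in the control libraries and 44646, 41762 and 50056 times in the less deep fluoxetine libraries. As CPM these were 696, 766 and 804, and 2711, 2484 and 2915. All treated libraries exceeded all control libraries by at least 209%, and the log2 fold change was 1.84 with SE 0.09 (adjusted p = 1.04e-06) by edgeR. Of the summed member level per kilobase, SCD made up 35.1% in control and 51.6% in fluoxetine-treated cells. The ratio of SCD to FASN was 2.79, 2.52 and 4.46 in control and 4.17, 4.08 and 5.73 in fluoxetine libraries. These ranges overlapped, with the highest values in the third libraries, and the log2 difference was 0.54 (exact permutation p = 0.3, adjusted 0.3). A processed pseudogene, SCDP1, is also in the table with a mean of only 2.17 counts per library.

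Of the 3 elongases among the members, 1 was called. ELOVL6 lengthens palmitate to stearate (chromosome 4, 110045846 to 110199199, minus strand). It was present at 92.9, 94.6 and 106 CPM in control cells and 217, 203 and 227 CPM after treatment, without overlap. The log2 fold change was 1.14 with SE 0.08 (adjusted p = 1.61e-05) by edgeR.

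ELOVL5, which lengthens polyunsaturated chains after the FADS2 step, lies on chromosome 6 (53267398 to 53349179, minus strand). Its libraries were tight, at 144, 148 and 156 CPM in control and 169, 169 and 176 CPM in fluoxetine-treated cells. The groups did not overlap, yet the lowest treated library was only 8.54% above the highest control one, and the log2 fold change of 0.20 with SE 0.07 (adjusted p = 0.0799) did not pass the threshold by edgeR. With the GC trend removed it was 0.13.

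ELOVL1 elongates saturated and monounsaturated chains to the very long ones of sphingolipids (chromosome 1, 43363397 to 43368074, minus strand). It was the one member on the lower side, at 121, 125 and 116 CPM in control and 105, 116 and 106 CPM in fluoxetine libraries, and the highest treated library lay just below the lowest control library. The log2 fold change of -0.15 with SE 0.07 (adjusted p = 0.214) did not pass the test by edgeR. Neither ELOVL1 nor ELOVL5 passed under any of the 15 alternatives run.

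Within libraries, the ELOVL6 to ELOVL5 ratio per kilobase was 0.337, 0.335 and 0.355 in control and 0.671, 0.627 and 0.675 after treatment. This was the largest shift of the 6 ratios, 0.94 on the log2 scale, and the SD of the log2 ratio was 0.0464 and 0.0593 in the groups (exact permutation p = 0.1, adjusted 0.15). For ELOVL5 against ELOVL1 the ratio went from 0.783, 0.776 and 0.880 to 1.06, 0.956 and 1.09, a difference of 0.35 on the log2 scale with the same p-values by the exact test.

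FADS1 and FADS2, with a promoter window each printed above, encode the delta-5 and delta-6 desaturases. These act on the path from linoleate and linolenate to highly unsaturated fatty acids. FADS1 (chromosome 11, 61799625 to 61829318, minus strand) stood at 179.6, 183 and 211 CPM in control and 541, 496 and 549.7 CPM in fluoxetine libraries. Its treated libraries were at least 135% above the control ones, a log2 fold change of 1.47 with SE 0.08 (adjusted p = 3.97e-06) by edgeR.

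FADS2 (chromosome 11, 61792980 to 61867354, plus strand) had the largest change of the members, and only 16 of the 15646 tested genes had a larger log2 fold change. It went from 47.9, 56.7 and 52.3 CPM to 253, 259.9 and 239 CPM, so that each treated library was at least 322% above every control library. The log2 fold change was 2.26 with SE 0.08 (adjusted p = 2.55e-07) by edgeR. Relative to FADS1, FADS2 was at 0.247, 0.288 and 0.230 per kilobase in control and 0.433, 0.486 and 0.404 in fluoxetine libraries, a log2 difference of 0.79 without overlap (exact permutation p = 0.1, adjusted 0.15). The genes share 490 exon bases on opposite strands, 4.79% of the FADS1 exons and 4.44% of the FADS2 exons, and whether the counting used strand is not given in the sources used here, so reads from that stretch are uncertain. FADS2 also shares 49 exon bases with FEN1, a DNA replication nuclease on the same strand, which fell by 0.36 on the log2 scale (adjusted p = 0.0184, edgeR). Apart from FADS1, FADS2, FEN1 and GGT7, the genes in the table that overlap a member averaged at most 2.67 counts per library.

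**Figure D3:**
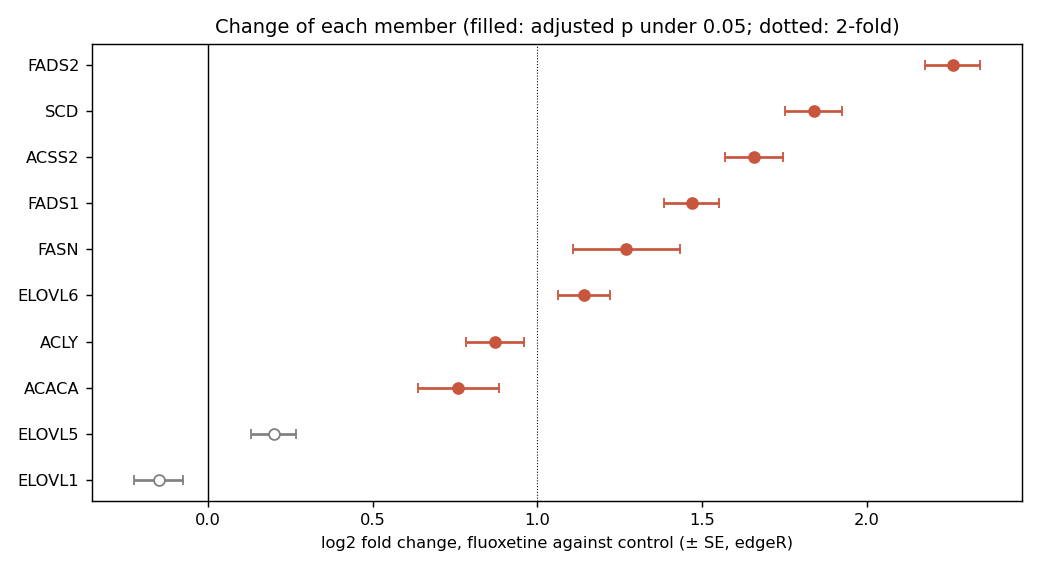
Log2 fold change of fluoxetine against control for each gene, with its standard error from edgeR, in order of size. Filled points passed an adjusted p-value of 0.05, the dotted line marks a 2-fold increase, and values run from -0.15 for ELOVL1 to 2.26 for FADS2.

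**Figure D4:**
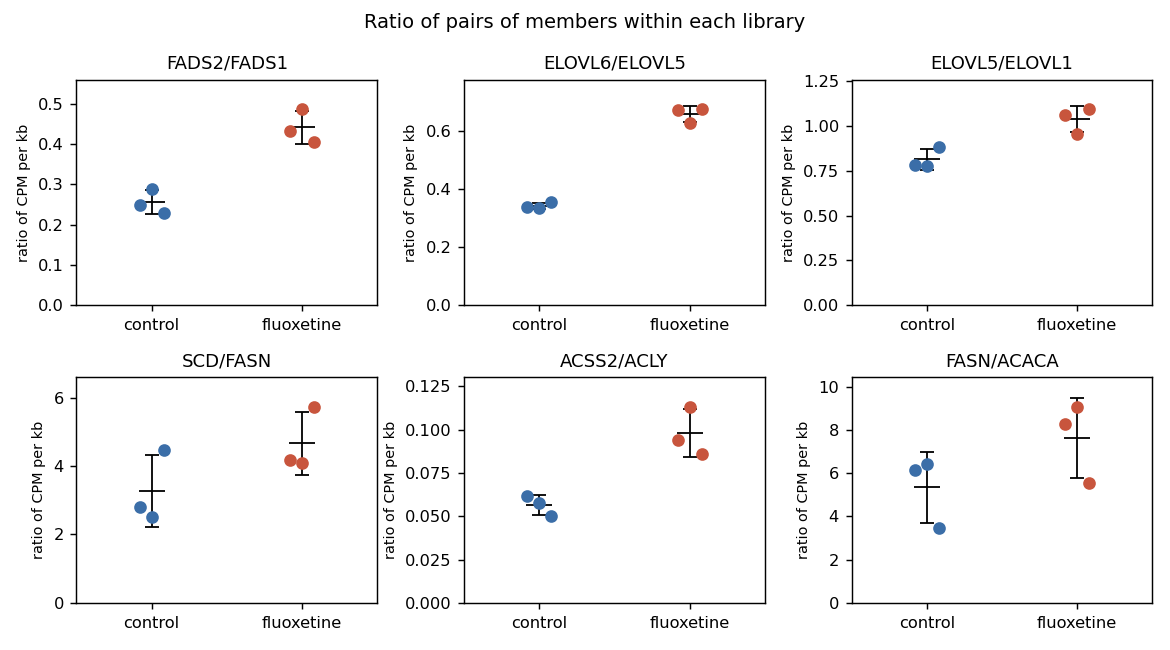
Ratio of the CPM per kilobase of a pair of members in each library, on linear axes from 0, with the mean and SD over 3 libraries. The groups are apart in 4 of the 6 pairs and overlap for SCD/FASN and FASN/ACACA, where the third library of each group deviates.

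Compared per kilobase of exon, the control levels fell in the order SCD (141 ± 10.2 CPM per kilobase, mean and SD), ACLY (77.6 ± 5.67), ELOVL1 (48.2 ± 1.81), FASN (45.6 ± 11.5), ELOVL5 (39.1 ± 1.52), FADS1 (18.7 ± 1.69), ELOVL6 (13.4 ± 0.944), ACACA (8.71 ± 1.10), FADS2 (4.74 ± 0.401) and ACSS2 (4.37 ± 0.218). FASN could not be ranked apart from ELOVL1 or ELOVL5, since its SD covers both, and FADS2 and ACSS2 differed by less than the SD of FADS2. After treatment, FASN (109.9 ± 13.5 CPM per kilobase) and FADS1 (51.7 ± 2.83) stood above ELOVL1 (43.4 ± 2.5) and ELOVL5 (44.9 ± 1.04), and FADS2 (22.7 ± 0.944) stood above ACACA (14.8 ± 2.29) and ACSS2 (13.8 ± 0.706). SCD (504 ± 40.2) and ACLY (142 ± 12.9) were still the highest, with ELOVL6 (29.5 ± 1.70) between ELOVL1 and FADS2, while ELOVL5 and ELOVL1, and likewise ACACA and ACSS2, differed by less than the larger SD of the pair. Lengths are of all annotated exons of a gene, whether or not H460 cells use them.

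The members have paralogues in the same families. Of 7 further elongase and desaturase genes, 6 are in the table and 5 were tested, of which 1 was called higher, and the median log2 fold change was 0.24. That gene, ELOVL4, an elongase of very long chains, went from 24.2 ± 2.19 CPM to 31.9 ± 1.39 CPM, a log2 fold change of 0.40 with SE 0.10 (adjusted p = 0.0282) by edgeR. Its call was lost when any library other than control replicate 3 was left out (adjusted p-values from 0.0874 to 0.157, edgeR). The second stearoyl-CoA desaturase gene, SCD5, had 21.4 ± 0.561 CPM and 19.5 ± 2.54 CPM with a log2 fold change of -0.14 with SE 0.11 (adjusted p = 0.491), and FADS3 had one of 0.24 with SE 0.17 (adjusted p = 0.399), both by edgeR. ELOVL7 had a value of 0.33 with SE 0.10 (adjusted p = 0.0594) by edgeR, which passed without control replicate 3 (0.36, adjusted p = 0.0244) and at equal depth (0.33, adjusted p = 0.0478).

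An elongase works with a reductase, a dehydratase and a second reductase, and of the 5 tested genes for these steps 1 was higher. HSD17B12, the ketoacyl reductase of the cycle, rose from 43.8 ± 4.09 CPM to 73.3 ± 2.33 CPM, a log2 fold change of 0.74 with SE 0.09 (adjusted p = 7.09e-04) by edgeR. The dehydratase genes HACD1 and HACD2 had 0.36 with SE 0.11 (adjusted p = 0.0585) and -0.09 with SE 0.10 (adjusted p = 0.601), and the enoyl reductase gene TECR had 0.06 with SE 0.09 (adjusted p = 0.705), by the same test. HACD1 passed with library size scaling alone (0.38, adjusted p = 0.0444, edgeR). The median of this list was 0.06. Cytochrome b5 and its reductases, which pass electrons to the desaturases, gave 0 called genes of 6 tested by edgeR or DESeq2 (2 at an unadjusted p under 0.05 by edgeR and 1 by DESeq2), with a median of 0.14 and 0.28 with SE 0.09 (adjusted p = 0.0678) for CYB5R1, the smallest p.

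For the supply of NADPH, 2 of 5 tested genes were called higher. IDH1, the cytosolic isocitrate dehydrogenase, rose from 274 ± 7.82 CPM to 507 ± 13.0 CPM, with a log2 fold change of 0.89 with SE 0.07 (adjusted p = 2.09e-05) by edgeR. ME1, the malic enzyme that uses the malate left by the citrate route, rose from 234 ± 10.4 CPM to 331 ± 12.7 CPM, a change of 0.50 with SE 0.07 (adjusted p = 0.00155) by edgeR. MTHFD1, of folate metabolism, had a log2 fold change of -0.06 with SE 0.08 (adjusted p = 0.604) by edgeR. Of 6 tested genes for citrate export, malonyl-CoA turnover and the activation of the carrier protein, 0 were called by edgeR or DESeq2 (1 at an unadjusted p under 0.05 by either). Among them the citrate carrier gene SLC25A1 had 0.17 with SE 0.16 (adjusted p = 0.546), and ACACB, the carboxylase of the mitochondrial surface, had 0.45 with SE 0.14 (adjusted p = 0.0554), which passed without control replicate 3 (0.49, adjusted p = 0.0386), without fluoxetine replicate 2 (0.50, adjusted p = 0.0325) and with the GC trend removed (0.46, adjusted p = 0.0239). Mitochondrial fatty acid synthesis, a separate short pathway that feeds lipoic acid formation, gave 0 called genes of 6 tested by edgeR or DESeq2 (2 at an unadjusted p under 0.05 by either, both lower), and its median was -0.11. NDUFAB1, its acyl carrier protein, had -0.46 with SE 0.19 (adjusted p = 0.139) by edgeR, and -0.71 without control replicate 3 (adjusted p = 0.00238) or -0.50 without the filter on low counts (adjusted p = 2.79e-04).

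Among 17 genes for transcription factors of lipogenic promoters and for the processing of SREBP, 3 were called higher and 1 lower. INSIG1, which holds the SREBP escort SCAP in the endoplasmic reticulum and is itself an SREBP target, rose from 39.0 ± 1.68 CPM to 206 ± 11.4 CPM, a log2 fold change of 2.40 with SE 0.08 (adjusted p = 2.16e-07) by edgeR. SREBF2 encodes the SREBP that acts chiefly on cholesterol genes and rose from 101 ± 10.5 CPM to 173 ± 4.01 CPM, a log2 fold change of 0.77 with SE 0.08 (adjusted p = 3.39e-04). SREBF1 encodes the SREBP that acts chiefly on fatty acid genes, and it stood at 105, 117 and 74.1 CPM in control and 139, 134 and 106 CPM in fluoxetine libraries. These ranges overlapped, and its log2 fold change of 0.36 with SE 0.16 (adjusted p = 0.159) did not pass by edgeR. The third library was the lowest of each group, as with FASN, and with the GC trend removed SREBF1 had 0.42 (adjusted p = 0.0016, edgeR). Without the filter on low counts it was 0.32 (adjusted p = 0.00832, edgeR). Leaving out control replicate 3 gave 0.16 (adjusted p = 0.352, edgeR). MLXIPL, the carbohydrate response factor ChREBP, had 0.71 with SE 0.18 (adjusted p = 0.0310) at 2.55 ± 0.255 CPM in control cells, and lost its call without any one of 5 libraries and with DESeq2 or equal depth (adjusted p up to 0.175). USF1, an E-box factor, had -0.32 with SE 0.09 (adjusted p = 0.0443), and lost its call without control replicate 1 or 2 or fluoxetine replicate 1 or 3 (adjusted p up to 0.194, edgeR) and with library size scaling alone (adjusted p = 0.0505).

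The neighbouring pathways were read on the same scale. Of the 20 enzymes of cholesterol synthesis, 18 were called higher and 16 by at least 2-fold, with a median log2 fold change of 1.39 beside 1.21 for the fatty acid genes. The members' largest changes, of FADS2 and SCD, lay within the range of this list, whose 4 smallest p-values belonged to MSMO1 (2.11), HMGCS1 (2.65), LSS (1.81) and IDI1 (1.67). Of 18 tested genes of fatty acid activation and oxidation, 3 were higher and 1 lower, and the median was 0.04. The 3 that rose are acyl-CoA synthetases, which activate fatty acids, namely ACSL1 (1.43), ACSL3 (0.71) and ACSL4 (0.62), none with an adjusted p above 0.00197 by edgeR. ACADVL, of mitochondrial oxidation, had a log2 fold change of -0.31 with SE 0.08 (adjusted p = 0.0284), and lost its call without control replicate 1 or 2 or fluoxetine replicate 1 or 3 (adjusted p up to 0.121, edgeR). All these lists were drawn up with earlier results of these data known, and their medians were not tested against each other.

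**Figure D5:**
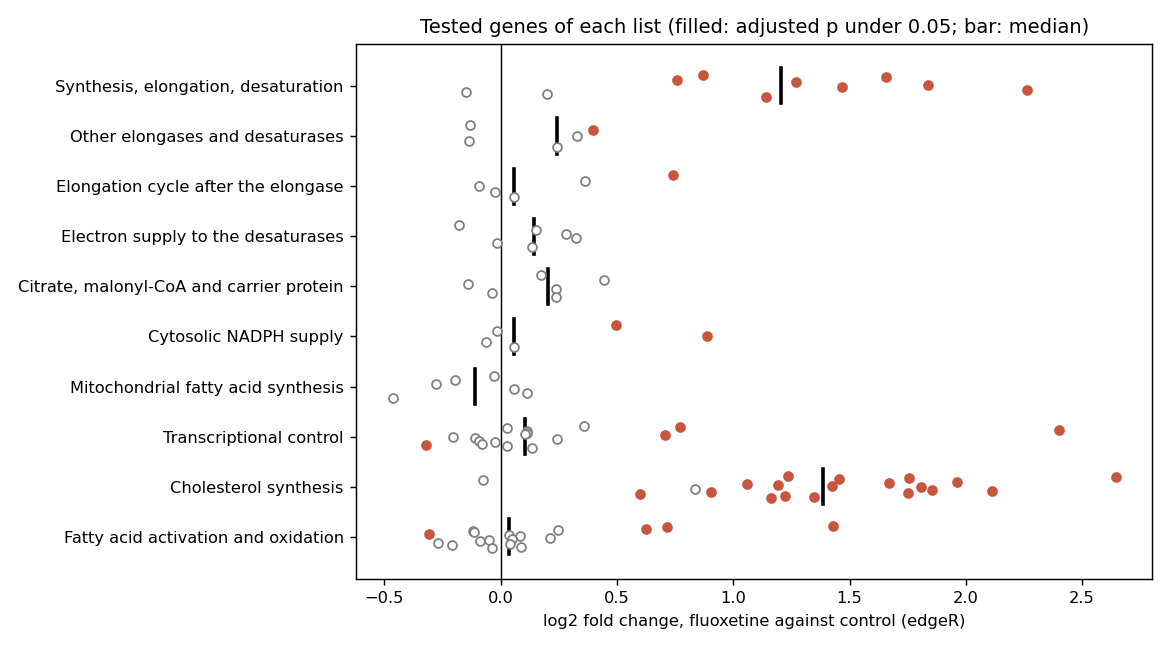
Log2 fold change of every tested gene in each list, from edgeR. Filled points passed an adjusted p-value of 0.05 and the bar is the median, which is 1.21 for synthesis, elongation and desaturation, 1.39 for cholesterol synthesis and between -0.11 and 0.24 for the other lists.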

How the data were processed

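RNA of H460 cells was sequenced as paired-end reads on an Illumina instrument. Per the submitters' processing notes and the study's methods, the authors used fastp 0.20.0, HISAT2 2.1.0, HTSeq 0.10.0 for counts per gene and DESeq2 1.18.1. The deposited table holds raw counts of 31762 genes in 6 libraries. The fold changes and p-values of the authors' own comparison, also in it, were not used. The genome build and strand setting are not given in the sources used here. Of 31635 genes shared with GENCODE 29 (GRCh38), 96.81% have the same start and end, and gene coordinates are those of the table.

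Counts were filtered with filterByExpr, scaled by TMM and tested with edgeR 4.0.16 (glmQLFit, glmQLFTest) in R 4.3.3 between the 2 groups without covariates. A gene was called at an adjusted p under 0.05 (Benjamini-Hochberg over 15646 genes). The SE is the absolute log2 fold change over the square root of F. CPM per kilobase used the length of all GENCODE 29 exons of a gene. On simulated data with 198 changed genes among 15450, 189 were called, all with the right sign, beside 7 false calls. The simulation gave all genes the same dispersion, planted only changes of at least 2-fold and held no GC trend. Its rates may therefore not hold for smaller changes or for libraries that differ as these do. Ratios of members were compared by exact two-sided permutation tests over 20 splits. The 15 alternatives used DESeq2 1.42.0, limma-voom 3.58.1, other scalings and filters, a replicate block, equal depth (16157507 counts) and each library left out, and removed the trend with GC content, which was chosen after seeing the data. All members are named, and of each further list up to 4 genes by smallest p, plus SREBF1 and SREBF2. Members and lists were chosen with earlier results of these data known, and 1 gene of the NADPH list is not reported here.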

Additional observations from a re-analysis of the deposited data

How the results depend on the processing

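Under all 15 alternatives, 8 members were called higher and 0 lower, and 6 of them by at least 2-fold. The median log2 fold change of the members lay between 1.17 and 1.23 under the alternatives that kept all libraries, and between 1.1133 (without control replicate 3) and 1.2376 (without control replicate 2) when 1 library was left out. The cause of the lower value was not tested. Counts over all genes moved more, from 1214 higher and 833 lower to 409 and 163 without fluoxetine replicate 1, 1627 and 2006 without control replicate 3, and 1609 and 1707 with the GC trend removed. The 6 ratios were computed again only on raw counts, where their differences between groups cannot change, and with each library left out. With a library left out, these differences moved by less than the spread between libraries. The ratios were not computed with the GC trend removed. Among the other named genes, TECR changed sign when a library was left out (from -0.035 to 0.0703), as did SLC25A1 (-0.0364 to 0.2905), PGLS (-0.1411 to 0.156) and CBR4 (-0.0185 to 0.0691, and -0.0479 with the GC trend removed). None of these 4 passed when a library was left out, and SLC25A1 passed with the GC trend removed (0.24, adjusted p = 0.036). With a replicate block, all-gene calls rose to 2231 higher and 1787 lower, and the members gave 8 calls with a median of 1.22. It also brought ELOVL7, HACD1, CYB5R1, ACACB, MID1IP1, NDUFAB1 and SREBF1 past the threshold (adjusted p = 0.00644, 0.00595, 0.0168, 0.00335, 0.0182, 6.27e-05 and 2.27e-04). In the fits without the block, CYB5A passed without control replicate 3 (-0.31, adjusted p = 0.0468) and MCAT without fluoxetine replicate 2 (-0.42, adjusted p = 0.0425). The labels do not say that equal numbers mark a shared culture or day. Deviations from the group means of same-numbered libraries correlated at 0.00678, 0.165 and 0.475, and not every library correlated best with its own number. The 3 libraries per group limit the permutation tests to p = 0.1 at best.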
